A study of Mus musculus with 12 samples.

Results

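The genes described here are the 53 genes of the DNA replication machinery and its nucleotide supply, followed through 4 groups of sorted cells from mouse intra-aortic haematopoietic clusters. They were chosen by name, by a rule that used none of their measured values, but with earlier results of these data known. They come from the 24138 genes of each deposited table. All 53 had 1 row of their own and were tested by the authors in every comparison used here. By role they are the 6 subunits of the helicase hexamer (Mcm2 to Mcm7), the 6 of the origin recognition complex (Orc1 to Orc6), 8 genes of helicase activation, 6 of the sliding clamp and its loader, 9 of the polymerases and primase, 3 of the single-strand binding complex, 3 of Okazaki fragment maturation, 6 of nucleotide supply and uracil removal, 4 of fork protection and 2 of chromatin assembly.

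RNA was sequenced from cells sorted from the aorta-gonad-mesonephros (AGM) region of C57BL/6 embryos as SSEA-1-CD31+CD117+, a phenotype shared by all groups. The 12 samples formed 4 groups of 3, taken at the embryonic stage E10.5 or E11.5, with genotype Fucci Red or Fucci Green. Fucci reporters mark the cell cycle with fluorescent proteins, and G1 cells were taken as mKO2+ from Fucci Red animals and S/G2/M cells as mAG+ from Fucci Green animals. Phase and reporter line therefore cannot be told apart in these comparisons, and the sources used here do not give the promoter that drives the reporters. Values are in FPKM, the sequenced fragments of a gene scaled by transcript length and library depth, with 1 authors' value for a gene in each group and hence no spread between samples. A gene is said to have risen or fallen where its q-value was under 0.05 in the authors' deposited table. The sources used here state neither whether a group's 3 samples came from separate litters nor whether the authors' test took them separately. The q-values then measure at most the spread between these samples, which may be technical.

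DNA replication starts at origins, where the origin recognition complex loads the Mcm2-7 hexamer in G1. In S phase the kinase of Cdc7 and Dbf4, with Cdc45 and the GINS complex, turns the loaded hexamer into a moving helicase, and polymerases held by the PCNA clamp copy the opened strands from building blocks made by ribonucleotide reductase and thymidylate synthase. Many of these genes are known targets of E2F transcription factors, whose activity rises at the passage from G1 into S phase.

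The promoters of 6 members are shown because they carry E2F-type letters in the hexamer and in Orc1, or belong to Rrm2 and Ung, the nucleotide supply and uracil removal genes with the lowest q-values between the ages. They were read from RefSeq on GRCm38.p6, run from 250 bases before the gene start to 30 bases after it, and are written 5′ to 3′ on the strand of the gene. Capitals mark E2F-type matches or, in Rrm2, a CCAAT box, and no E2F-type or CCAAT match was found in the window of Ung. The windows are chr8:75109259-75109538 on the plus strand for Mcm5, chr1:128359676-128359955 on the minus strand for Mcm6, chr5:138171854-138172133 on the minus strand for Mcm7, chr4:108579204-108579483 on the plus strand for Orc1, chr12:24708004-24708283 on the plus strand for Rrm2 and chr5:114130185-114130464 on the plus strand for Ung.
Mcm5: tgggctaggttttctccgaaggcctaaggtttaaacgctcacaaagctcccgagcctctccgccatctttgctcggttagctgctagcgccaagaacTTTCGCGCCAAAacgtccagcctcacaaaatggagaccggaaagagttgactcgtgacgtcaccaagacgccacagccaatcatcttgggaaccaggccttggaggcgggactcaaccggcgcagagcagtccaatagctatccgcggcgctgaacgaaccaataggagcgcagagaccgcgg
Mcm6: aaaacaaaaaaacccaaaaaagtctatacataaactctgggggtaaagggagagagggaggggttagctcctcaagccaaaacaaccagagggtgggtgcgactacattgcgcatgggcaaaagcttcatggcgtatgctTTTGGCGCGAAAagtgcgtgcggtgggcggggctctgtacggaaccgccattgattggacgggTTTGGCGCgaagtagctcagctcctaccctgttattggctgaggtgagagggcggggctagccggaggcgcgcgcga
Mcm7: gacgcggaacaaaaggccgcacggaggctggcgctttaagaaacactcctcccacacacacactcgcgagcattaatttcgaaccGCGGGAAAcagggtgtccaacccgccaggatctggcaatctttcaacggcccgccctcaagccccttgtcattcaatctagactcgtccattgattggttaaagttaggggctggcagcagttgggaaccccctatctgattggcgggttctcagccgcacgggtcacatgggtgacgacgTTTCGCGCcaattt
Orc1: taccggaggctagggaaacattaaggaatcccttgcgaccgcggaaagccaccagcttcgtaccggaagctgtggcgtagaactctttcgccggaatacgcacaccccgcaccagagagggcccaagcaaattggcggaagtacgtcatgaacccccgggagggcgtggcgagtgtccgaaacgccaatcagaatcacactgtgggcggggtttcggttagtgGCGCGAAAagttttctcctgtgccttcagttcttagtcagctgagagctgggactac
Rrm2: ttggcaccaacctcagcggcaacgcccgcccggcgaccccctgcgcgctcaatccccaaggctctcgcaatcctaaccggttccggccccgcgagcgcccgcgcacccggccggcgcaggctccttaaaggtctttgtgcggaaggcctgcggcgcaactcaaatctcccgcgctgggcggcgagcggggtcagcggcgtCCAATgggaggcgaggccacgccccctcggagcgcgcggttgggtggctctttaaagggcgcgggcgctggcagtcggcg
Ung: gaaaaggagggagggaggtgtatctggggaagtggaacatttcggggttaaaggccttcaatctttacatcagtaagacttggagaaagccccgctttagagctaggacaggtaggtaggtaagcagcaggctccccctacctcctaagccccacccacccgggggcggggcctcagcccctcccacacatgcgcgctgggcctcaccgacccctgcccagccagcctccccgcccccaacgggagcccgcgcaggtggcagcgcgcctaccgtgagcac

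In the printed Mcm6 promoter, 2 stretches matched the E2F-type letters, and the longer one, TTTGGCGCGAAA, consists of overlapping matches on the opposite strands that were merged. The Mcm5 promoter holds a merged match of the same kind, TTTCGCGCCAAA, from position -153 to position -142 relative to the gene start. In the Orc1 promoter a single match, GCGCGAAA, lies from position -27 to position -20. The search used 4 spellings, TTTGGCGC, TTTCCCGC, TTTGCCGC and TTTCGCGC, on both strands of 300 bases, 250 before and 50 after the start. Promoter entries were found for 45 of the 53 members, all but Mcm4, Gins1, Gins2, Gins4, Rfc2, Prim2, Pole and Tipin. Of these 45, 14 (31.1%) held an E2F-type match, beside 704 of all 27025 genes in the RefSeq table (2.61%). In the upstream 250 bases alone, 8 of the 45 members (17.8%) held one, beside 2.16% of all genes. The matches were found in 4 of 5 hexamer genes, in 4 of 7 polymerase and primase genes (Pola1, Pold1, Pold3 and Pole2), in Orc1 and Orc3, and in Gins3, Rfc3, Lig1 and Clspn. None of the 6 genes of nucleotide supply and uracil removal, of the 3 single-strand binding genes or of the 2 chromatin assembly genes held one. The CCAAT box, CCAAT on either strand and counted also where it overlapped another match, was found in 26 of the 45 members (57.8%) and in 41.1% of all genes. The element known as CHR, searched as TTTGAA on either strand, was found in 7 of 45 members (15.6%) and in 20.2% of all genes. A match is a description of the letters and not a bound site, and no match says only that these letters are not in this window.

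**Figure D1:**
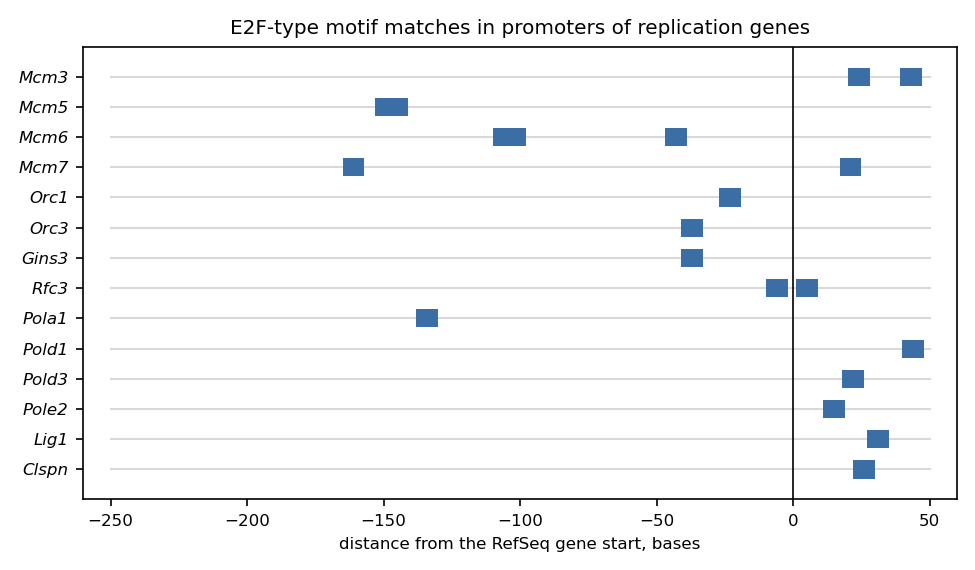
Place of E2F-type matches (bars) in the promoters of the 14 members that hold one, with the distance from the RefSeq gene start in bases on the horizontal axis and the searched window drawn as a grey line. Both matches of Mcm6 lie before the start, while those of Mcm3 lie after it.

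Replication genes were read over a wide span of levels, and the levels of 1 gene differed little between the groups compared with the levels of different genes. Pcna, the sliding clamp (chromosome 2, 132249286 to 132253180, mm10), was the most abundant member, with 350.1 FPKM in E10.5 G1 cells, 437 FPKM in E10.5 S/G2/M cells, 267 FPKM in E11.5 G1 cells and 316 FPKM in E11.5 S/G2/M cells. Gins3, a subunit of the GINS complex, was at the other end in all groups but E11.5 G1, where Orc1 was lowest with 3.23 FPKM. Gins3 had 3.21, 5.87, 5.01 and 4.26 FPKM in the same order of groups. The highest group exceeded the lowest 1.64-fold for Pcna and 1.83-fold for Gins3. Between genes of the same group the most abundant member exceeded the least abundant 109-fold in E10.5 G1 cells and 74.2-fold in E11.5 S/G2/M cells. FPKM is per transcript length, so such levels can be set side by side between genes, but only roughly where reads may be shared with other genes.

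Complexes whose subunits work together in fixed proportions differed in how even their RNA levels were. All 6 hexamer genes lay between 39.8 and 92.1 FPKM in every group. The origin recognition complex was less even, with Orc6 at 29.0 to 37.8 FPKM and Orc1, the subunit whose protein is known to vary through the cell cycle, at 3.23 to 10.8 FPKM. In the GINS complex, Gins2 had 148 to 212 FPKM while Gins3 stayed below 6 FPKM. Gins2 shares 2758 of its 3900 annotated exonic bases with Gse1 on the opposite strand, and the sources used here do not say whether reads kept their strand, so reads of the pair cannot be told apart. In all, 18 members share exonic bases with an opposite-strand gene, and annotated pseudogenes named for Pcna and Tyms could share reads with these genes. The clamp loader genes lay between 11.4 and 32.6 FPKM, with Rfc1 lowest in every group but E11.5 G1, where Rfc3 was lowest. Ribonucleotide reductase, which makes deoxyribonucleotides, had its large subunit Rrm1 at 64.5 to 103 FPKM and its small subunit Rrm2 at 59.4 to 176 FPKM.

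The sum over the 53 members was 2181 FPKM in E10.5 G1 cells, 2678 FPKM in E10.5 S/G2/M cells, 1724 FPKM in E11.5 G1 cells and 2165 FPKM in E11.5 S/G2/M cells. The sum was higher in S/G2/M than in G1 at each age and lower at E11.5 than at E10.5 in each phase. Over all genes tested for phase, 12984 at E10.5 and 12414 at E11.5, it differed in the same directions. It was 558154, 591881, 519679 and 564803 FPKM in the same order of groups. Over all genes tested for age, with E10.5 first, it was 532457 and 526383 FPKM in G1 and 587045 and 588263 FPKM in S/G2/M. E11.5 G1 was the group with the lowest value for 30 of the 53 members (56.6%), beside 28.3% of 11818 genes tested at both ages. E10.5 S/G2/M was the group with the highest value for 35 members (66.0%), beside 24.1% of those genes. Only Pold1, the catalytic subunit of polymerase delta, had its lowest value in E10.5 S/G2/M cells, with 8.94 FPKM. The tables of the ages were normalized separately, and the value of 1 group differed between tables by up to 11.8% over the members, so orders between groups that rest on less than that are uncertain. In bulk samples, fewer cells of a type and less RNA per cell cannot be told apart.

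**Figure D2:**
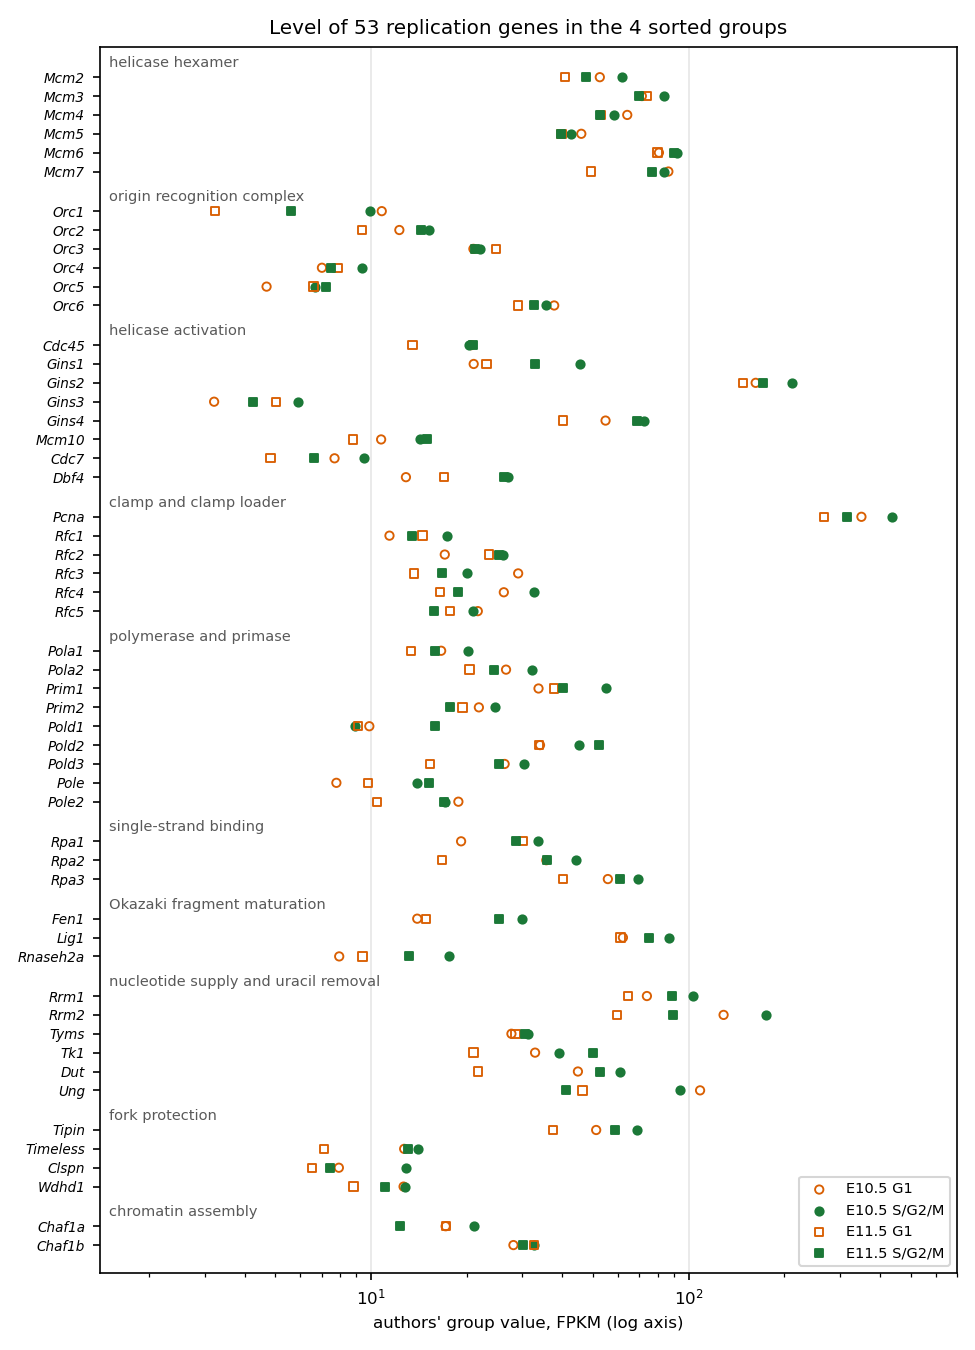
Authors' group values of the 53 members in FPKM on a log axis, ordered by role, with open symbols for G1, filled symbols for S/G2/M, circles for E10.5 and squares for E11.5; each symbol is 1 group value and has no error bar because no value per sample was given. The hexamer genes lie between 39.8 and 92.1 FPKM in all groups, and Pcna stands highest with 267 to 437 FPKM.

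The first comparison asked how replication genes differ between S/G2/M and G1 cells at E10.5. Most were somewhat higher in S/G2/M cells, by a median of 1.24-fold, and no member rose or fell by the authors' test. The values were higher in S/G2/M for 42 of 53 members (79.2%) and lower for 11, with a median log2 fold change of 0.31, while 47.3% of all 12984 genes tested were higher, with a median of -0.04. With 0 of 53 members past a q of 0.05, the background was 0.655% of all genes tested in either direction. An unadjusted p under 0.05 was reached by 7 members with the higher value in S/G2/M (background 2.4%) and by 0 with the lower value (background 4.28%). Missing the threshold does not show that the groups did not differ. Among called genes in the members' range of levels, the smallest change was 2.23-fold, and the largest difference of a member was 2.21-fold.

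The members with the largest differences at E10.5 belong to the steps that finish Okazaki fragments and fire origins. Rnaseh2a, the catalytic subunit of the ribonuclease that removes ribonucleotides from DNA, had 7.95 FPKM in G1 against 17.6 FPKM in S/G2/M, a log2 fold change of 1.14 (p = 0.0294 in the authors' deposited table, q = 0.636). Fen1, the flap endonuclease of Okazaki fragment maturation, had 14.0 and 29.8 FPKM (p = 0.0125 in the authors' deposited table, q = 0.461). These 2 genes share exonic bases with a gene on the opposite strand, 154 of 3082 with Prdx2 for Rnaseh2a and 1908 of 2422 with Gm10143 for Fen1. Lig1, the ligase that seals the fragments, had 62.1 and 87.0 FPKM, and it too shares exonic bases, 217 of 3517 with Zswim9. All 3 genes of this role were thus higher in S/G2/M, with a median log2 fold change of 1.09.

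Gins1, a GINS subunit, had 21.1 FPKM in G1 against 45.4 FPKM in S/G2/M (p = 0.0172 in the authors' deposited table, q = 0.538). Dbf4, which activates the kinase Cdc7, had 12.9 and 26.9 FPKM (p = 0.0104 in the authors' deposited table, q = 0.431). Among the 8 genes of helicase activation 7 were higher in S/G2/M, and Cdc45, with 20.7 and 20.3 FPKM, was so near to even that centring the fold changes on the median of all genes tested put it on the higher side too. Their median log2 fold change was 0.40. Cdc7 itself had 7.68 and 9.48 FPKM, a smaller difference than its activator.

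Among the polymerase genes, Pole, the catalytic subunit of polymerase epsilon, which copies the leading strand, had 7.78 FPKM in G1 against 14.0 FPKM in S/G2/M (p = 0.0126 in the authors' deposited table, q = 0.463). Prim1, the catalytic subunit of primase, had 33.7 and 55.0 FPKM (p = 0.0493 in the authors' deposited table, q = 0.741). Pold1 and Pole2 were the 2 of 9 polymerase and primase genes with the lower value in S/G2/M, at log2 fold changes of -0.15 and -0.14. Rpa1, the large subunit of the complex that coats single-stranded DNA, had 19.2 and 33.6 FPKM (p = 0.0232 in the authors' deposited table, q = 0.594). Rpa2 and Rpa3, the smaller subunits, were both at a log2 fold change of 0.32.

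The differences of the hexamer genes were small at E10.5. Mcm2, Mcm3 and Mcm6 were higher in S/G2/M and Mcm4, Mcm5 and Mcm7 lower, none by more than 1.18-fold, with a median log2 fold change of 0.07. The origin recognition complex had 4 genes higher and 2 lower, with a median of 0.19. In nucleotide supply, 5 of 6 genes were higher, and Rrm1 (log2 fold change 0.48), Rrm2 (0.45) and Dut (0.44), the dUTPase that keeps uracil out of DNA, lay close together. Ung, the uracil-DNA glycosylase that removes uracil from DNA, was the exception, with 108.7 FPKM in G1 against 94.2 FPKM in S/G2/M. The lowest log2 fold change of any member was -0.54 for Rfc3, a clamp loader subunit with 29.1 and 20.0 FPKM. All 4 fork protection genes and both chromatin assembly genes were higher in S/G2/M, with medians of 0.29 and 0.25.

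The same question at E11.5 gave a similar median, with the largest differences in Dut, Tk1 and Rpa2. The values were higher in S/G2/M for 40 of 53 members (75.5%) and lower for 13, with a median log2 fold change of 0.29, while 46.1% of all 12414 genes tested were higher, with a median of -0.06. No member rose or fell (background 0.701% in either direction). An unadjusted p under 0.05 was reached by 3 members with the higher value in S/G2/M (background 3.32%) and by 0 with the lower value (background 4.95%). The smallest change of a called gene in the members' range was 2.47-fold, and the largest difference of a member was 2.43-fold.

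These 3 members act in nucleotide metabolism and single-strand binding. Dut (chromosome 2, 125247248 to 125259049) had 21.7 FPKM in G1 against 52.8 FPKM in S/G2/M, a log2 fold change of 1.28 (p = 0.00305 in the authors' deposited table, q = 0.198). Tk1, the thymidine kinase of the salvage pathway, had 21.0 and 49.9 FPKM (p = 0.0152 in the authors' deposited table, q = 0.378). Rpa2 had 16.7 and 35.8 FPKM (p = 0.0157 in the authors' deposited table, q = 0.381). In each of the 3 the G1 value at E11.5 was the lowest of the 4 groups, while the E10.5 G1 values were 44.8 FPKM for Dut, 32.9 FPKM for Tk1 and 35.7 FPKM for Rpa2. Tk1 shares 83 of its 1440 exonic bases with Afmid. At E10.5 the log2 fold changes of Dut, Tk1 and Rpa2 had been 0.44, 0.25 and 0.32.

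By role at E11.5, the medians were 0.63 for the 9 polymerase and primase genes, of which 8 were higher in S/G2/M, 0.57 for the 8 helicase activation genes, of which 7 were higher, and 0.53 for the 6 genes of nucleotide supply and uracil removal, of which 5 were higher. All 4 fork protection genes were higher, with a median of 0.49 and Timeless highest at 0.87. The hexamer had 3 genes higher and 3 lower, with a median of 0.09, but Mcm4 and Mcm5 lay at log2 fold changes of -0.01 and -0.0025, and centring on the median of all genes tested made it 5 higher and 1 lower (Mcm3). Its largest difference was that of Mcm7, 49.2 and 76.7 FPKM. The lowest log2 fold change was -0.48 for Chaf1a, the large subunit of the histone chaperone CAF-1, with 17.2 and 12.3 FPKM. Chaf1b was lower too, at -0.11, so that the direction of both chromatin assembly genes was opposite to that at E10.5. Chaf1a shares 1862 of its 5535 exonic bases with Ubxn6. Gins3 and Orc3 had the next lowest values, with log2 fold changes of -0.23 and -0.22.

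The 2 phase comparisons share no samples. Set side by side, 33 of 53 members were higher in S/G2/M at both ages (62.3%, beside 27.4% of 11763 genes tested in both). Lower at both were 4 (7.5%, beside 32.8%), and 16 had opposite signs, beside 4681 of the 11763 genes. The 4 lower at both ages were Mcm4, Mcm5, Rfc5 and Ung, of which 2, Rfc5 and Ung, were still lower at both after centring on the median of all genes tested. Another 4, Fen1, Gins1, Dbf4 and Pole, had log2 fold changes of at least 0.5 at both ages. These are 4 of 53, beside 640 of the 11763 genes. Dbf4, for example, had 17.0 FPKM in G1 against 26.3 FPKM in S/G2/M at E11.5, close to the E10.5 level in S/G2/M. Rpa1 differed in S/G2/M against G1 by a log2 fold change of 0.81 at E10.5 and of -0.07 at E11.5. Whether the phase difference of any member differs between the ages was not tested, since that needs values per sample.

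**Figure D3:**
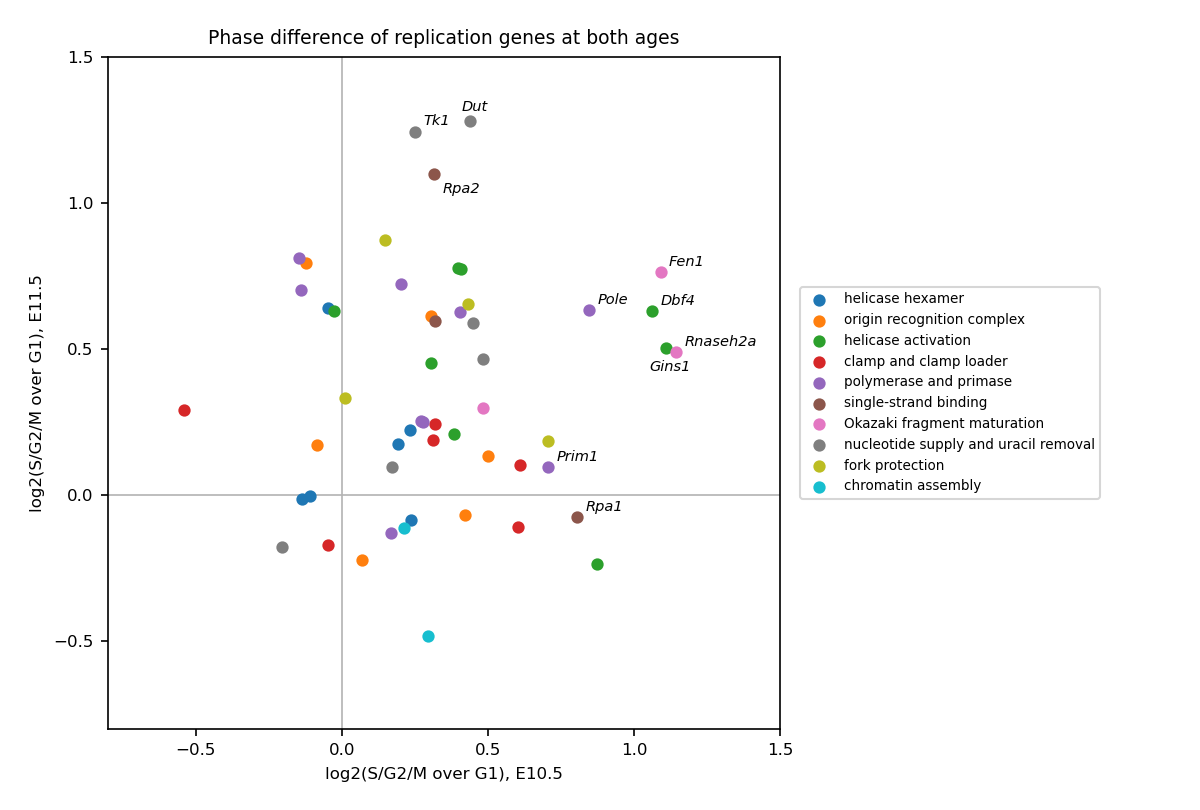
Log2 fold change of S/G2/M over G1 for each member at E10.5 (horizontal axis) and E11.5 (vertical axis), coloured by role, with the members of an unadjusted p under 0.05 at either age named. Of the 53 points 33 lie to the upper right of the zero lines, and no member passed a q of 0.05 at either age.

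Other genes and cell types also differed between the phases. Of the 18 markers of G2 and mitosis, 6 rose at E10.5 (Plk1, Kif11, Cdk1, Ube2c, Top2a and Prc1) and 3 at E11.5 (Plk1, Ube2c and Top2a), all 18 were higher in S/G2/M at both ages, and the median log2 fold changes were 1.20 and 1.05. The neuronal markers summed to 348 FPKM in G1 against 56.4 FPKM in S/G2/M at E10.5, where all 5 fell, and to 119 and 60.2 FPKM at E11.5, where 0 of 5 passed and 3 were lower with an unadjusted p under 0.05. The macrophage markers summed to 282 and 172 FPKM at E10.5, where 0 of 10 passed and 3 were lower with an unadjusted p under 0.05, and to 2123 and 578 FPKM at E11.5, where 7 fell. The erythroid markers summed to 15054 and 19195 FPKM at E10.5 and to 11760 and 3040 FPKM at E11.5, where 2 of 8 fell. No marker was at 0 in any group. Their part in the differences of the replication genes was not tested.

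The next comparison asked how the genes differ with age in G1 cells. Here the members leaned the other way, with 33 of 53 lower at E11.5 and 20 higher (37.7%), and a median log2 fold change of -0.19, while 50.9% of all 12953 genes tested were higher, with a median of 0.02. No member rose or fell (background 4.45% in either direction). An unadjusted p under 0.05 was reached by 6 members with the lower value at E11.5 (background 6.48%) and by 0 with the higher value (background 8.96%). In this and the next comparison the values come from the authors' tables of the ages. The smallest change of a called gene in the members' range of levels was 2.10-fold, which 2 members exceeded.

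The genes of nucleotide supply and uracil removal had the lowest median of any role, -0.76, with 5 of 6 lower at E11.5, and Rrm2, Ung and Dut are among the members with an unadjusted p under 0.05. Rrm2 (chromosome 12, 24708254 to 24714146) had 123 FPKM at E10.5 against 60.1 FPKM at E11.5, a log2 fold change of -1.03 (p = 0.00415 in the authors' deposited table, q = 0.0745). Ung (chromosome 5, 114130435 to 114139321) had 104 and 46.8 FPKM, a log2 fold change of -1.15 (p = 0.0056 in the authors' deposited table, q = 0.0896). Dut had 42.8 and 22.0 FPKM (p = 0.0228 in the authors' deposited table, q = 0.216). Tk1, at a log2 fold change of -0.56, was lower as well, whereas Tyms, the thymidylate synthase, had 26.4 and 28.8 FPKM and Rrm1 had 70.5 and 65.3 FPKM. The partner subunits Rrm1 and Rrm2 of ribonucleotide reductase thus had unlike differences. Rrm2 went from above Rrm1 to slightly below it, at 60.1 against 65.3 FPKM. The contrast between these subunits was not tested.

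Orc1 (chromosome 4, 108579454 to 108614831) had the largest difference of any member, 10.3 FPKM at E10.5 against 3.26 FPKM at E11.5, a log2 fold change of -1.66 (p = 0.00665 in the authors' deposited table, q = 0.101). It shares 360 of its 3014 exonic bases with Gm12743 on the opposite strand. The other origin recognition genes were at -0.30 to 0.58, with Orc5 highest. Mcm7 had 82.3 and 49.7 FPKM (p = 0.0419 in the authors' deposited table, q = 0.296), while the other 5 hexamer genes were at -0.28 to 0.13. Mcm7 shares 321 of its 2962 exonic bases with Ap4m1. Rpa2 had 34.0 and 16.9 FPKM (p = 0.0322 in the authors' deposited table, q = 0.257), and Rpa1 went the other way, with 18.3 and 30.5 FPKM and the highest log2 fold change of any member, 0.73. The 4 fork protection genes were all lower at E11.5, with a median of -0.40, and the 3 Okazaki fragment genes were all higher, with a median of 0.17.

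In S/G2/M cells Ung was the only member past a q of 0.05 with age. It fell from 93.7 FPKM at E10.5 to 42.8 FPKM at E11.5, a log2 fold change of -1.13 or 2.19-fold (p = 0.00125 in the authors' deposited table, q = 0.0352). Of the 53 members, 1 fell (1.93% of all genes tested fell) and 0 rose (4.07% changed in either direction). Calls among the members were thus no more frequent than among all genes tested. An unadjusted p under 0.05 was reached by 2 members with the lower value (background 6.09%) and by 1 with the higher value (background 7.79%). Rrm2 had 175 and 93.3 FPKM, a log2 fold change of -0.91 (p = 0.00285 in the authors' deposited table, q = 0.0611). Pold1 had 8.87 and 16.6 FPKM, a log2 fold change of 0.90 (p = 0.0488 in the authors' deposited table, q = 0.355). It was the highest log2 fold change of any member, followed by Tk1 at 0.42 and Pold2, an accessory subunit of polymerase delta, at 0.27.

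Over all members, 40 of 53 were lower at E11.5 in S/G2/M cells and 13 were higher (24.5%), with a median log2 fold change of -0.17, while 52.2% of all 12768 genes tested were higher, with a median of 0.03. After centring on that median 10 were higher, since Orc3, Dbf4 and Rfc2, each with a log2 fold change of at most 0.03, turned lower. The hexamer had 5 of 6 genes lower, with a median of -0.07. The clamp and its loader had 5 of 6 lower, with a median of -0.32, and Pcna had 434 and 328 FPKM. Orc1 had 9.96 and 5.80 FPKM, a log2 fold change of -0.78. Clspn, the adaptor of the replication checkpoint kinase, had 12.8 and 7.73 FPKM. Dut, with 60.4 and 54.8 FPKM, and Rpa2, with 44.0 and 37.3 FPKM, differed less in S/G2/M than the G1 values did, a contrast that was not tested.

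The 2 age comparisons share no samples with each other, but each shares its groups with the phase comparisons, so their values are given side by side only. In both phases 28 of 53 members were lower at E11.5 (52.8%, beside 31.8% of 12089 genes tested in both). Another 8 were higher (15.1%, beside 35.8%), of which 5 stayed higher after centring. The other 17 had opposite signs, beside 3921 of the 12089 genes. The 4 members with log2 fold changes of -0.5 or below in both phases were Ung, Rrm2, Orc1 and Rfc4. These are 4 of 53, beside 1421 of the 12089 genes, so such values were no more frequent among the members. Rfc4 had 25.0 and 16.7 FPKM in G1 and 32.4 and 19.5 FPKM in S/G2/M, with p-values of 0.62 and 0.293 in the authors' deposited tables. It shares 175 of its 1307 exonic bases with Eif4a2 on the opposite strand. Ung was the single member that was lower at E11.5 by more than 2-fold in both phases.

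**Figure D4:**
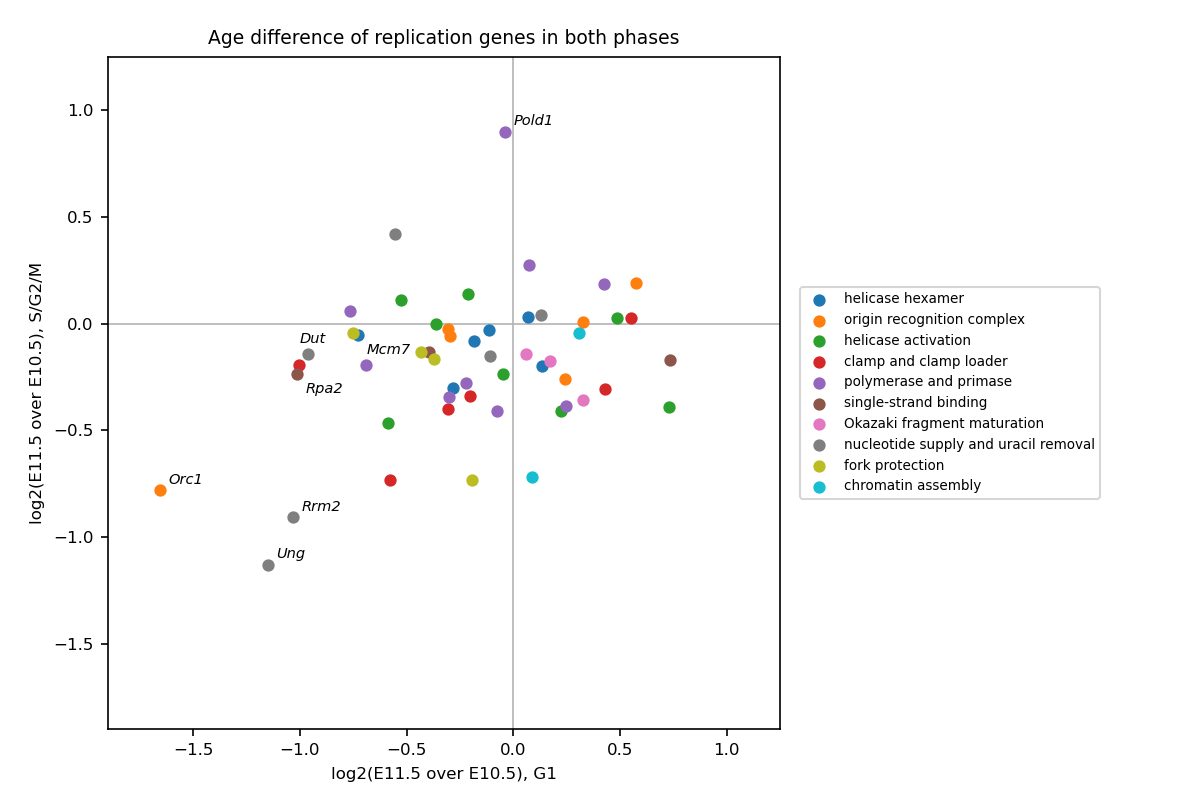
Log2 fold change of E11.5 over E10.5 for each member in G1 (horizontal axis) and S/G2/M (vertical axis), coloured by role, with the members of an unadjusted p under 0.05 in either phase named. Ung, Rrm2 and Orc1 lie at the lower left, with Ung at -1.15 and -1.13, and Pold1 lies highest at 0.90 in S/G2/M.

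Markers of other cells moved with age as well. The 10 macrophage markers summed to 270.2 FPKM at E10.5 against 2149 FPKM at E11.5 in G1, where all 10 rose, and to 169 and 603 FPKM in S/G2/M, where 6 rose. The mesenchymal markers summed to 126 and 39.1 FPKM in G1, where 3 of 7 fell, and 3 of 7 fell in S/G2/M. Of the 5 neuronal markers 2 fell in G1, and of the 8 erythroid markers 2 fell in S/G2/M, where they summed to 19364 and 3198 FPKM. Of the 10 markers of the clusters and endothelium 3 rose in G1, among the 9 tested, and 4 rose in S/G2/M. Cdh5 was the most abundant of these, with 102 to 241 FPKM, and Gfi1 the least, with 0.25 to 1.63 FPKM, and no marker was at 0 in any group. Of the 18 markers of G2 and mitosis, 15 were higher at E11.5 in G1 and 3 lower, with a median log2 fold change of 0.48. In S/G2/M 13 were higher and 5 lower, with a median of 0.30. None of the 18 passed in G1, and 1 fell in S/G2/M (background 1.93%). The part of all these markers in the age differences of the replication genes was not tested.

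Beyond the 53 members, 64 other genes of origin licensing, firing, synthesis and nucleotide metabolism were read in the same way. Of these, 1 rose in S/G2/M at each age, Top2a, the topoisomerase that separates sister chromatids, with 51.5 and 128 FPKM at E10.5 (q = 0.0256 in the authors' deposited table) and 58.1 and 143 FPKM at E11.5 (q = 0.0102 in the authors' deposited table). Top2a is also on the list of G2 and mitosis markers and was counted among the risen markers above. Of all genes tested, 0.193% rose at E10.5 and 0.137% at E11.5. An unadjusted p under 0.05 was reached by 6 of 64 at E10.5 (background 2.4%) and 9 of 64 at E11.5 (background 3.32%), all with the higher value in S/G2/M. Medians of the 64 log2 fold changes were 0.22 and 0.31. All 7 thymidylate and folate genes were higher in S/G2/M at both ages, with medians of 0.62 and 0.98. Dtymk, the thymidylate kinase, had 85.0 and 167 FPKM at E10.5 (p = 0.0174 in the authors' deposited table), and Dctd, which makes dUMP from dCMP, had 32.4 and 73.5 FPKM at E11.5 (p = 0.00515 in the authors' deposited table). Pfas, an enzyme of purine synthesis, had 11.7 and 19.9 FPKM at E10.5 (p = 0.0185 in the authors' deposited table) and 9.05 and 18.3 FPKM at E11.5 (p = 0.0128 in the authors' deposited table).

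Of the licensing genes, Cdt1, which loads the hexamer, had 32.8 and 36.4 FPKM in G1 and S/G2/M at E10.5 and 24.3 and 20.3 FPKM at E11.5. Gmnn, its inhibitor, had 35.4 and 46.3 FPKM at E10.5 and 22.1 and 31.5 FPKM at E11.5. Neither passed in any comparison. With age in G1, 2 of the 64 rose (background 3%) and 0 fell, with 2 lower at an unadjusted p under 0.05 (background 6.48%), Chek1 and Nasp. Samhd1, which breaks down deoxynucleotides, rose from 29.0 to 63.7 FPKM (q = 0.0494 in the authors' deposited table), and the row that joins Atrip, the partner of the checkpoint kinase Atr, with Trex1 rose from 2.96 to 24.3 FPKM (q = 0.00694 in the authors' deposited table). The reads of these joined genes cannot be told apart. With age in S/G2/M, 1 of the 64 fell, Nasp, a histone chaperone, from 254 to 113 FPKM (q = 0.00308 in the authors' deposited table, background 1.93%), and in G1 it had 182 and 95.6 FPKM without passing.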

How the data were processed

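RNA-seq of 12 sorted samples was analysed from 4 of 6 gene tables, the other 2 being the phase tables in the other order. Per the file headers, each of the authors' tables gives 1 FPKM value for each of 2 groups, with the p-value and q-value of their gene test. CASAVA 1.4, TopHat, Cuffdiff and mm10 are named per the submitters' processing notes, and bowtie 0.12.2 and mm8 per the labels' protocols; loci of all 53 members overlapped their genes in GENCODE M21 of mm10. The tables' G2 was read as S/G2/M. Read totals are not given, so depth and the precision it gives are unknown, and the sources used here do not give the strand of the reads. The deposited q-values were recovered from the p-values by the Benjamini-Hochberg method over all genes tested. The smallest deposited p-value is 5e-05, and the smallest q-value for phase is 0.0101. The smallest q-value also depends on how many genes reached the smallest p-value.

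Fold changes are ratios of the deposited FPKM with no pseudocount. The design foresaw tests on sample values and, where tables held only group values, the authors' q under 0.05, which was used. All members may be named, with p or q for those called, those with an unadjusted p under 0.05 and the 3 highest and 3 lowest log2 fold changes per comparison; of the 64 other genes, those called and up to 4 with such a p, and of each marker list up to 3 genes. Genes completing small counts (Mcm4, Mcm5, Rfc4 and Rfc5, the risen mitotic markers, Cdt1 and Gmnn) and further members described by level were picked after their values were seen. The members and lists were chosen with earlier results of these data known. Alternatives were thresholds of 0.01 and 0.085, unadjusted p, minimum levels of 5 or 1 FPKM, a pseudocount of 1, median centring, summed rows and the other table order. Added after seeing the data were leaving out 18 members that share exonic bases with an opposite-strand gene, and other promoter windows. Protein motifs were not analysed here. The scripts were tested on simulated data. The tools were matplotlib 3.10.9, pandas 2.3.3, numpy 2.4.6 and Python 3.11.15.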

Additional observations from a re-analysis of the deposited data

How the results depend on the processing

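No paired analysis was possible because the files hold no values per sample, and leaving out a replicate was not run for the same reason. Where unadjusted p-values of the authors' deposited tables under 0.05 were taken in place of q, the replication genes counted were 7 and 3 of 53 for phase at E10.5 and E11.5, and 6 and 3 for age in G1 and S/G2/M, and of the 64 other genes they were 6, 9, 4 and 6. At a q under 0.085 in the authors' deposited tables, 1 replication gene passed for age in G1 and 2 in S/G2/M. At a q under 0.01 none did in S/G2/M, where Ung is lost. Of the other genes, 0 and 0 passed a q under 0.01 for phase and 1 for age in G1. For phase no gene of any kind passed that threshold, since the smallest q there was 0.0101. The 0 and 0 are thus shared by all genes tested and say nothing particular about these genes. E2F-type matches were found in 8 of 45 members with the upstream 250 bases alone and in 13 with the first start of each gene. The median log2 fold changes ranged over the alternatives run from 0.28 to 0.34 and 0.25 to 0.35 for phase, and from -0.21 to -0.18 and -0.20 to -0.16 for age. Centring on the median of all genes tested turned Cdc45 higher in S/G2/M at E10.5 (log2 fold change 0.0088), Mcm4 and Mcm5 higher in S/G2/M at E11.5 (0.05 and 0.06), and Orc3, Dbf4 and Rfc2 lower with age in S/G2/M (-0.02, -0.0027 and -0.0013). The pseudocount and, for phase, the other table order turned none of the 53 members. The depth is unknown, so what it limits cannot be given.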
